A study of Mus musculus with 15 samples.

Results

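The genes described here are 9 receptors that bind phosphatidylserine, oxidised lipid or other scavenged ligands, together with the matricellular protein thrombospondin 1: Stab1, Stab2, Timd4, Havcr1, Cd300lf, Lrp1, Cd36, Scarb1, Scarb2 and Thbs1. They were chosen by symbol, and all 10 were matched by Ensembl identifier to rows of a table of 46078 genes. RNA sequencing was done on retinal pigment epithelium (RPE), the pigmented layer behind the photoreceptors, of female mice at postnatal day 14, collected 2 hours after the lights came on. The 15 libraries comprise 4 of Mertk KO, 4 of Mertk WT, 3 of Bai1 Tg pos and 4 of Bai1 Tg neg, and the title of the series names compensation among phosphatidylserine receptors, so the question put to these genes was which are present in RPE and which differ when Mertk is lost or Bai1 is added.

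Mertk KO mice carry the Mertktm1Grl allele and Mertk WT mice do not, and neither label names a Bai1 transgene. Both Bai1 groups have wild-type Mertk, with a Bai1 transgene in Bai1 Tg pos and none by label in Bai1 Tg neg. Every library shares the strain label of a mix of C57BL/6J and B6;129-Mertktm1Grl/J, so 129-derived alleles near Mertk can travel with the knockout. The sources used here name neither the promoter and species of the transgene nor the exons missing from the Mertk allele. The labels do not say whether replicates are separate animals, so p-values measure only how far these libraries spread, and that spread may be technical.

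Dying cells and the shed tips of photoreceptor outer segments expose phosphatidylserine, a lipid normally kept on the inner face of the plasma membrane. Phagocytes read it directly, through receptors such as Timd4 (TIM-4), Havcr1 (TIM-1), Cd300lf, Stab1 and Stab2, or through bridging proteins that lead to Mertk. Cd36 and Scarb1 take up lipids and oxidised particles, Scarb2 (LIMP-2) is a lysosomal membrane protein that carries glucocerebrosidase, Lrp1 is a large endocytic receptor of the LDL receptor family, and Thbs1 is a secreted glycoprotein that binds CD36 and CD47. Cd36 and Scarb1 have been studied in the RPE for outer segment and carotenoid uptake.

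Total counts ranged from 9591129 to 20024507 per library, so that 3 counts, the floor used here for presence, equal 0.15 to 0.312 CPM (counts scaled to library size, here with TMM factors). The 10 RPE markers listed, such as Rpe65 and Ttr, summed to between 41732 and 49085 CPM in the groups. Ttr alone averaged 24271 CPM, while Best1, also listed, averaged 0.743 CPM and was at 0 in 1 library. Mertk transcript remained at 178 ± 18.9 CPM (SD, n = 4) in Mertk KO against 246 ± 13 CPM in Mertk WT, and the table does not show which exons those counts come from. Against its label, Bai1 Tg neg 4 contained Adgrb1, the gene of Bai1, at 143.5 CPM, so the Bai1 comparisons were also run without it.

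Promoter windows of 4 members are printed because the members differ widely in CpG content, and over all genes a CpG-rich window went with presence in these libraries. Each is the 250 bases before the RefSeq transcription start in GRCm38.p6, on the gene's strand, with every CG in capitals (the motif CG reads the same on both strands). Scarb2 and Lrp1 were among the abundant members. Cd300lf had the lowest mean level of those present in every library, and Timd4 was at 0 counts in 14 of 15 libraries.
Scarb2 (chr5:92505658-92505907, minus strand): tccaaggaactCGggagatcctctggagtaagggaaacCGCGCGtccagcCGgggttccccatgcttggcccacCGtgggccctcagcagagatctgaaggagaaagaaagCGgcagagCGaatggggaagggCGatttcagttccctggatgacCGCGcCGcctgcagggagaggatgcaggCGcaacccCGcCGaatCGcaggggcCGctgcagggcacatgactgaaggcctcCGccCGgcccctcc
Lrp1 (chr10:127621149-127621398, minus strand): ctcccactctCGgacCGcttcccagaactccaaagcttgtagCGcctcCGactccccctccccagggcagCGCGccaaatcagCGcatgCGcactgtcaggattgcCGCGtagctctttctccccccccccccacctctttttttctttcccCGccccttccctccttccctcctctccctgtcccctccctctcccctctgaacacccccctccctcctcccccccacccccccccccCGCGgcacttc
Cd300lf (chr11:115133993-115134242, minus strand): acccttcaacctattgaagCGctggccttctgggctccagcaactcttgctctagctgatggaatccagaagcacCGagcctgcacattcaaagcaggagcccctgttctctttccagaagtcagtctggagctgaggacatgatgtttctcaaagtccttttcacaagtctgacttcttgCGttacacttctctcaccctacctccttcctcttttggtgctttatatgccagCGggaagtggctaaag
Timd4 (chr11:46810549-46810798, plus strand): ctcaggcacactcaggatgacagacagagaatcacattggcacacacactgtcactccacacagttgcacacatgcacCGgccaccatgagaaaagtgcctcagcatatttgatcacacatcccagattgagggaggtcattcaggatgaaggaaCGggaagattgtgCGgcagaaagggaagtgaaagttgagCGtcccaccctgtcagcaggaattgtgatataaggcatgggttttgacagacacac

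The windows of Scarb2 and Lrp1 held 19 and 13 CG pairs, and those of Cd300lf and Timd4 held 4 each. Over 32851 promoter windows of the same length the median was 6, and 19.7% had as many as Scarb2 or more. Of the 10 members, 8 were in the promoter table. Stab1 had 5, Stab2 and Cd36 had 3 each, and the 3 windows of Havcr1 held 2 to 3. With classes set after the members' counts were known, 13.1% of 7129 genes with 5 or fewer were at or above 3 counts in every library, against 80.2% of 8329 genes with 13 or more. The low-CpG members fell on both sides of that divide: Stab1, Stab2 and Cd300lf were at or above the floor in every library, while Timd4, Havcr1 and Cd36 were not.

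In the RPE 7 of the 10 members were present in every library and 3 were at or near 0. Levels between genes are compared per length, as RPKM (CPM divided by the summed exon length in kilobases), and are given as the mean ± SD over the 15 libraries. Thbs1 stood at 459 ± 97.8 RPKM, rank 65 of 46078 genes. Lrp1 stood at 103 ± 13.9 RPKM, rank 412. Scarb1, the high-density lipoprotein receptor, was at 34.1 ± 1.19 RPKM and Scarb2 at 18.6 ± 1.10 RPKM. Next came the stabilins, multidomain receptors known from sinusoidal endothelium and macrophages, with Stab2 at 1.68 ± 0.209 RPKM and Stab1 at 1.15 ± 0.262 RPKM. Cd300lf, an inhibitory receptor of myeloid cells, was at 0.791 ± 0.438 RPKM.

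The order from Thbs1 down to Stab2 was the same in each library. Thbs1 was 4.45-fold above Lrp1, Lrp1 3.03-fold above Scarb1, Scarb1 1.83-fold above Scarb2 and Scarb2 11.1-fold above Stab2, and at each of these steps the ranges over the 15 libraries did not overlap. Below that the ranges over the 15 libraries overlapped: Stab2 lay above Stab1 in 13 of 15 libraries, and Stab1 above Cd300lf in 11 of 15. By group, the libraries' ranges of Stab2 and Stab1 overlapped in Mertk KO and Bai1 Tg neg but not in Mertk WT and Bai1 Tg pos. Those of Stab1 and Cd300lf overlapped in every group but Mertk KO, where Stab1 was at 0.907 to 1.30 RPKM and Cd300lf at 0.183 to 0.313 RPKM.

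**Figure D1:**
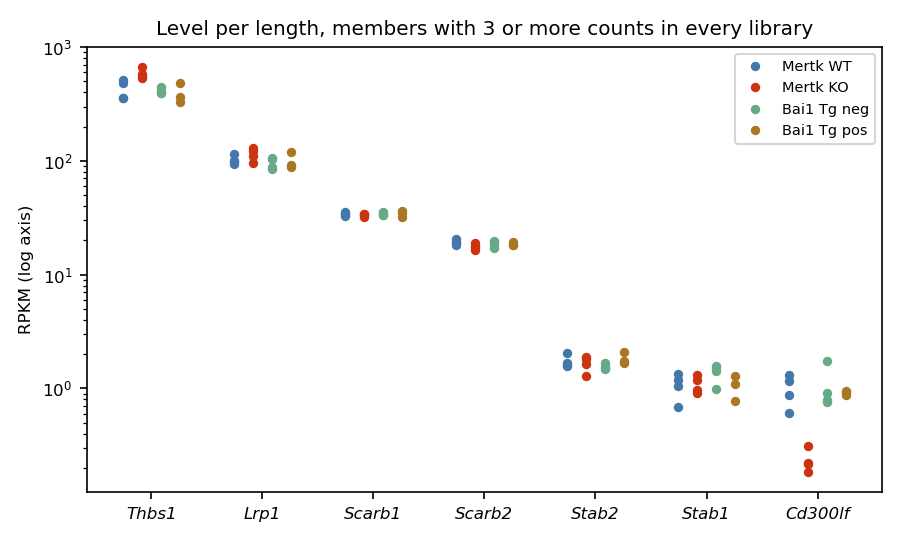
Level per length in RPKM (y axis, log scale) of the 7 members with at least 3 counts in every library (x axis), 1 point per library, coloured by genotype group. Thbs1, Lrp1, Scarb1 and Scarb2 form separate steps between 459 and 18.6 RPKM on average, Stab2, Stab1 and Cd300lf overlap near 1 RPKM, and the 4 Mertk KO points of Cd300lf lie lowest.

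The remaining 3 members were scarcely seen. Havcr1, the kidney injury receptor of the TIM family, had 0 counts in all 15 libraries, which allows at most 0.0129 CPM over the 232411477 counts together (3 counts, counting error only). Timd4, the TIM receptor of resident macrophages, had 1 count, in Bai1 Tg pos 2. Cd36 had 20 counts in all, of which 7 came from Mertk KO 3 and 7 from Bai1 Tg pos 1. The other 13 libraries held 0 to 3 counts of Cd36, and 9 libraries held none. Mertk KO 3 was also the Mertk KO library highest in 6 fibroblast markers (49.4 CPM summed, against 3.54 to 9.13 in the other 3) and in 15 macrophage markers (16.7 CPM, against 6.43 to 8.60). Bai1 Tg pos 1 was the highest of its group in macrophage markers (17.3 CPM, against 10.5 and 11) but the lowest in fibroblast markers (2.94 CPM). Other libraries with high sums had few or no Cd36 counts. Mertk WT 4, the highest of all in fibroblast markers (51.4 CPM), had 0. Bai1 Tg neg 2, at 17.0 CPM of macrophage markers, had 1. The part of those cells in the Cd36 counts was not tested. Neither Timd4, Havcr1 nor Cd36 passed the low-count filter, so the comparisons below cover 7 members.

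Since these are bulk libraries, fewer cells of a type and less RNA per cell cannot be told apart. Of the macrophage markers, Ptprc and Aif1 were at 0 counts in every Mertk KO and Bai1 library, and the list of 15, which leaves out Csf1r, summed to 6.43 to 17.3 CPM over all groups. Cd68, a lysosomal scavenger receptor of macrophages, made up most of that sum by group mean. Csf1r, the receptor for macrophage colony-stimulating factor, was at 607 to 736 CPM. Of 5 markers of lymphatic or liver-type sinusoidal endothelium, the usual home of Stab2, the sums were 0 to 1.61 CPM, with Clec4g at 0 in all groups and Prox1 at 0 in both Bai1 groups. The 12 markers of vascular endothelium summed to 103 to 212 CPM, but Ramp2, a receptor-modifying protein, made up 90.5% of the summed means. Without it the sums were 8.31 to 24.0 CPM, mostly from Kdr, a VEGF receptor (4.60 to 12.2 CPM), while Pecam1, Cdh5, Tek, Tie1, Emcn, Cldn5, Plvap, Esam and Vwf each averaged under 1 CPM. Stab2 itself was at 11.3 to 18.1 CPM across the libraries.

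**Figure D2:**
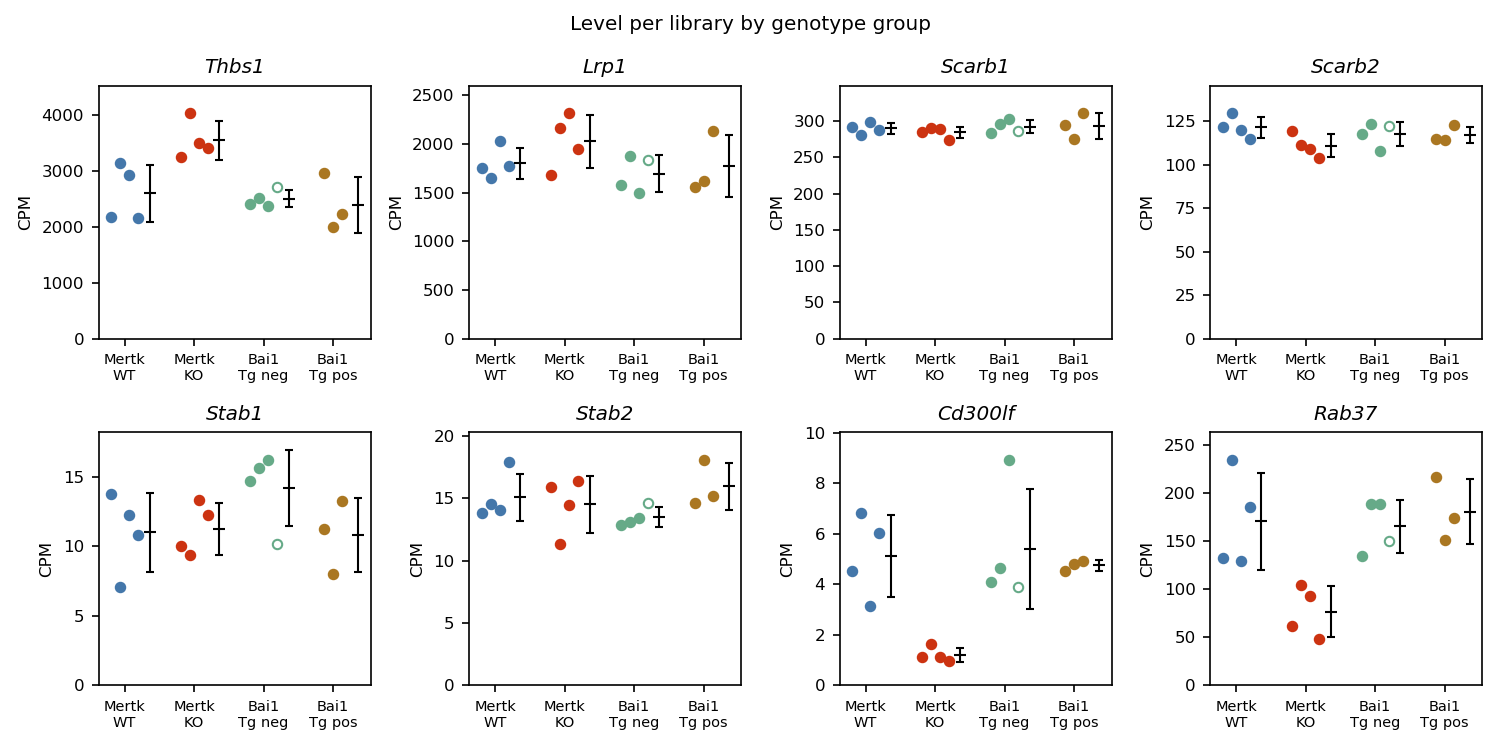
Level in CPM (y axis, from 0) of the 7 detected members and of Rab37, the gene around Cd300lf, in the 4 groups (x axis). Each point is a library, bars give the mean and SD, and an open circle marks Bai1 Tg neg 4 as labelled. Cd300lf and Rab37 are lower and Thbs1 is higher in all 4 Mertk KO libraries than in any Mertk WT library, and the other members overlap between those groups. Over all genes tested, 3.52% did not overlap between them.

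With Mertk lost, 1 of the 7 tested members passed the threshold: Cd300lf fell. Over all 13447 genes tested 0.223% passed (edgeR quasi-likelihood test, adjusted p under 0.05), and 0.164% were lower. Cd300lf was at 1.13, 1.61, 1.11 and 0.943 CPM in Mertk KO 1 to 4 (16 to 24 counts each). In Mertk WT 1 to 4 it was at 4.51, 6.81, 3.14 and 6.04 CPM (47 to 125 counts). All 4 knockout libraries lay below all 4 wild-type libraries. Among all genes tested, 3.52% had libraries that did not overlap between these groups, in either direction. The log2 fold change was -2.10 (SE 0.314, 95% interval -2.78 to -1.42, adjusted p = 0.013, edgeR). In the Bai1 groups, which carry wild-type Mertk, it was at 3.89 to 8.94 CPM, also above every Mertk KO library. The share of all genes with such an order was not counted.

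The call did not hold under every alternative. With limma-voom on the same 8 libraries the log2 fold change was -1.93 (adjusted p = 0.0503). In edgeR, leaving out Mertk KO 1, Mertk KO 3, Mertk KO 4 or Mertk WT 4 took the adjusted p to 0.0589, 0.0588, 0.0709 and 0.0566, with log2 fold changes of -2.06, -2.06, -1.995 and -2.01.

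The summed markers of macrophages, rods and vascular endothelium overlapped between Mertk KO and Mertk WT. Macrophage markers summed to 6.43 to 16.7 CPM in Mertk KO and 7.34 to 9.75 CPM in Mertk WT, and with their level as a covariate the log2 fold change of Cd300lf was -2.12 (adjusted p = 0.0251, edgeR). Of 12 rod photoreceptor markers 11 lay lower in Mertk KO (median log2 fold change -0.68), though none passed in edgeR and 0 had an unadjusted p under 0.05. With the rod level as a covariate Cd300lf was at -2.08 (adjusted p = 0.0231, edgeR). All 4 tested vascular endothelium markers lay lower as well (median -0.47), of which 2 had an unadjusted p under 0.05 and none passed in edgeR. Their part in the difference of Cd300lf was not tested.

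Where Cd300lf lies in the genome bears on what its counts are. The gene is at chr11:115116214-115133992 (GRCm38) on the minus strand, wholly inside Rab37, a secretory Rab GTPase on the plus strand at chr11:115091431-115162236. Their exons share 0 bases, but the counting used no strand, so fragments of unspliced Rab37 RNA over Cd300lf exons cannot be told apart from Cd300lf RNA. Rab37 was at 61.0, 104, 92.8 and 47.9 CPM in Mertk KO 1 to 4. It was at 132, 234, 129 and 185 CPM in Mertk WT 1 to 4. Here too every knockout library lay below every wild-type library, where 3.52% of all genes tested did not overlap in either direction. The log2 fold change of Rab37 was -1.16 (SE 0.308) and did not pass (adjusted p = 0.533, edgeR).

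Cd300lf was lower also relative to Rab37. Per 100 Rab37 counts, Mertk KO 1 to 4 held 1.85, 1.55, 1.19 and 1.97 Cd300lf counts, and Mertk WT 1 to 4 held 3.41, 2.91, 2.44 and 3.26. The means were 1.64 ± 0.346 and 3.00 ± 0.435 (SD, n = 4 each), and the groups did not overlap (exact permutation test, two-sided, p = 0.0286, the smallest that 4 against 4 can give). This ratio was chosen after the values were seen. With the Rab37 level as a covariate, added after seeing the data, the log2 fold change of Cd300lf was -1.18 and did not pass (adjusted p = 1, edgeR). Between the Bai1 groups the ratio was 2.71 ± 0.569 (n = 3) and 3.22 ± 1.05 (n = 4), an exact permutation p of 0.629. Without the library labelled Bai1 Tg neg 4 the latter was 3.42 ± 1.19 (n = 3) and the exact permutation p was 0.5, where 3 against 3 cannot give less than 0.1. Across the 15 libraries the levels of the 2 genes on the log2 CPM scale had a Pearson r of 0.913, the fifth highest of 14520 genes for Cd300lf. The libraries share genotype groups, so this r is a description.

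**Figure D3:**
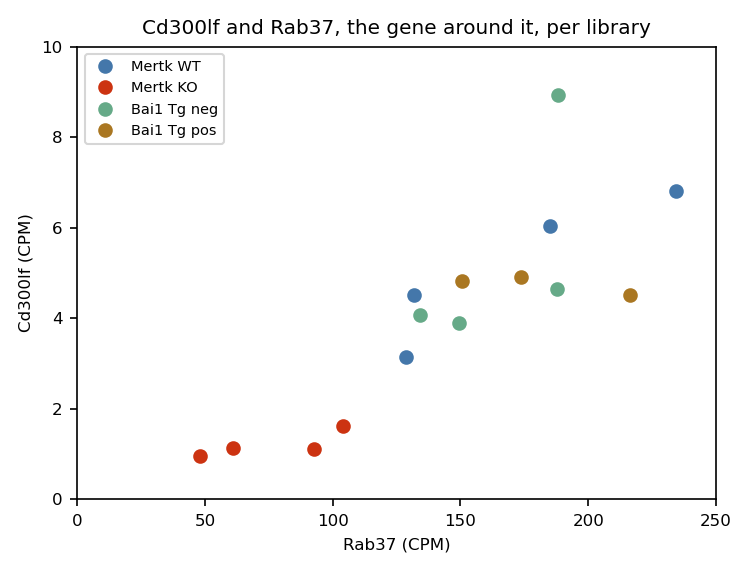
Level of Cd300lf (y axis, CPM) against that of Rab37, the gene that surrounds it on the other strand (x axis, CPM), 1 point per library, coloured by group. The 4 Mertk KO libraries lie at the lower left, at or below 1.61 CPM of Cd300lf and 104 CPM of Rab37, and Bai1 Tg neg 3 stands highest at 8.94 CPM of Cd300lf.

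A second doubt on identity comes from Cd300ld, an activating relative in the CD300 cluster. It was the only CD300 gene found to match Cd300lf at 95% identity or more over at least 150 bases. Transcripts of Cd300lf and Cd300ld align at 95.1% identity over 344 bases, against 5149 exon bases of Cd300lf in all. A second alignment, of a single transcript of each gene, was searched for stretches of 60 bases without gaps. Each stretch had to lie inside both coding sequences and within a single exon of each gene. Of these, the stretch with the most differences is printed 5′ to 3′ in GRCm38, with the 7 differing bases in capitals.
Cd300lf (chr11:115126302-115126361, minus strand): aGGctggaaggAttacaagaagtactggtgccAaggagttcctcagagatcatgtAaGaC
Cd300ld (chr11:114987494-114987553, minus strand): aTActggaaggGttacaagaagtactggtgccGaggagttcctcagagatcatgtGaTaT
Elsewhere in that second alignment a stretch of 60 bases was identical in both. Cd300ld had 0 counts in 14 of 15 libraries and 6 counts in the library labelled Bai1 Tg neg 4. Its counts were thus 0 in every Mertk KO and Mertk WT library. Summing both genes therefore left the log2 fold change of Cd300lf between these groups at -2.10 (adjusted p = 0.013, edgeR). Of the 12 CD300 genes listed, Cd300lf was the only one to pass the low-count filter in the Mertk comparison and in the Bai1 comparison.

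Thbs1, the most abundant member, was higher in all 4 Mertk KO libraries but did not pass the threshold over all genes. Mertk KO 1 to 4 held 3254, 4042, 3502 and 3408 CPM. Mertk WT 1 to 4 held 2186, 3138, 2928 and 2157 CPM, so the lowest knockout library lay just above the highest wild-type library. The log2 fold change was 0.44 (SE 0.123, 95% interval 0.17 to 0.72, unadjusted p = 0.00397, adjusted p = 0.437, edgeR), and 5.58% of all genes had an unadjusted p under 0.05. Among all genes tested 3.52% had libraries that did not overlap between Mertk KO and Mertk WT. Mertk WT 2 and 3, the higher pair for Thbs1, were also the highest of all libraries in 12 rod photoreceptor markers, at 3646 and 2771 CPM summed, against 884 and 1092 CPM in Mertk WT 1 and 4 and 957 to 1597 CPM in Mertk KO. Fitted with the rod marker level as covariate, the log2 fold change of Thbs1 was 0.57 (adjusted p = 0.0158, edgeR). The Bai1 groups, with 1997 to 2960 CPM, lay below every Mertk KO library, an order whose share over all genes was not counted.

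Thbs1 is linked to Mertk. It lies at chr2:118111876-118127133 on the plus strand, 10.6 Mb from the start of Mertk, in a stretch where many genes differed between Mertk KO and Mertk WT. Within 2 Mb of its start, 6 of the 41 other tested genes passed the threshold (14.6%), against 5.2% of the 250 genes within 20 Mb of Mertk, which include them, and 0.097% of 12369 genes on other chromosomes. Higher in Mertk KO were Eif2ak4, a kinase that senses amino acid shortage (log2 fold change 0.59), Bub1b, a spindle checkpoint kinase (1.11), Rmdn3, a mitochondrial tether (0.68), and Gchfr, the regulator of GTP cyclohydrolase (4.16). Lower were Ivd, of leucine breakdown (-0.57), and Tyro3, a receptor tyrosine kinase related to Mertk (-1.84). Their adjusted p-values ran from 2.65e-05 to 0.0214 (edgeR). Libraries did not overlap for 24.4% of the 41 genes, against 3.21% on other chromosomes.

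The nearest tested genes on either side of Thbs1 did not pass. Gm13986, 0.255 Mb before it, was 0.42 higher on the log2 scale (adjusted p = 0.905, edgeR). Gm29233, which shares 208 exon bases with Thbs1 on the opposite strand and has 358 counts in all against 650975 for Thbs1, had one of 0.29 (adjusted p = 0.934, edgeR). Gpr176, an orphan receptor 0.165 Mb beyond the start, had one of 0.45 (adjusted p = 0.905, edgeR). A difference of Thbs1 through loss of Mertk and one through alleles linked to the knockout cannot be told apart in this design.

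**Figure D4:**
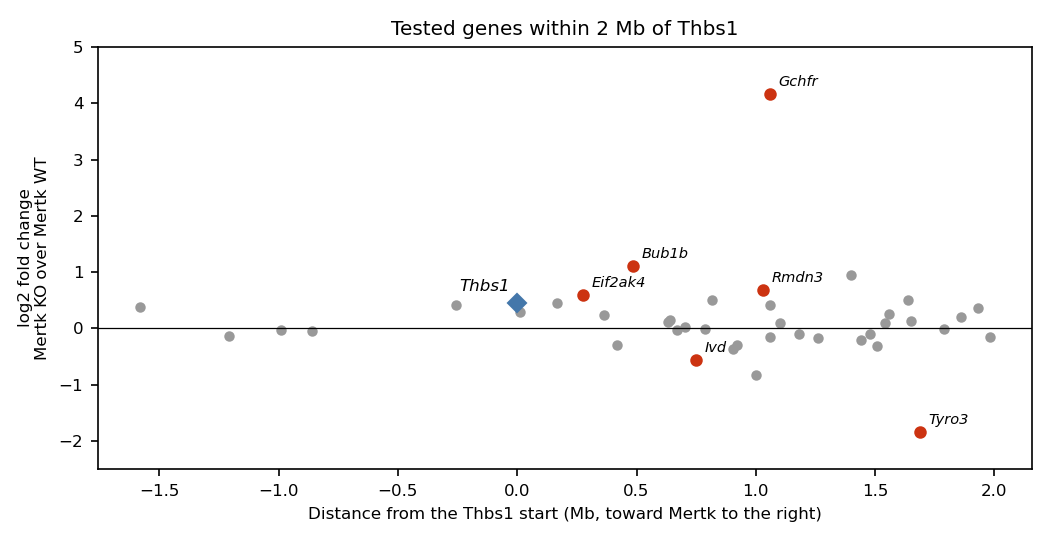
Log2 fold change between Mertk KO and Mertk WT (y axis, higher in Mertk KO above 0) for Thbs1 (blue diamond) and the 41 other tested genes within 2 Mb of it, by distance from the Thbs1 start in Mb (x axis). Red points are the 6 genes past the threshold, which lie on the side toward Mertk, as do most of the 41 genes, and grey points are the rest.

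The other 5 tested members did not pass between Mertk KO and Mertk WT. Lrp1 was at 1685 to 2318 CPM in Mertk KO and 1653 to 2029 CPM in Mertk WT, which gave a difference of 0.17 on the log2 scale (95% interval -0.06 to 0.39). Scarb1 was the steadiest, at 273 to 290 CPM and 281 to 299 CPM (-0.03, -0.18 to 0.11). Scarb2 was at 104 to 120 CPM and 115 to 130 CPM (-0.14, -0.29 to 0.02). For these 3, the intervals leave room for changes of at most 0.39 on the log2 scale. Stab1 was at 9.33 to 13.4 CPM and 7.08 to 13.8 CPM (0.03, -0.42 to 0.47), and Stab2 at 11.3 to 16.4 CPM and 13.9 to 17.9 CPM (-0.05, -0.37 to 0.27). Stab1 shares 109 exon bases with Nt5dc2 on the opposite strand, and Stab2 shares 141 with Gm16268. Over the 7 members the median log2 fold change was -0.03, beside 0.00 over all genes tested.

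With Bai1 added, none of the 7 members passed in edgeR, DESeq2 or limma-voom, and none had an unadjusted p under 0.05 in edgeR, as 5.18% of all genes did. These fits kept the library labelled Bai1 Tg neg 4, and in the edgeR fit Adgrb1 itself did not pass (log2 fold change 2.18, adjusted p = 0.958). Without that library Adgrb1 was at 10.7 (adjusted p = 4.38e-12, edgeR), and again no member passed. Of 13855 genes tested 0.0144% passed, and without the library labelled Bai1 Tg neg 4 it was 0.0369% of 13562. Stab1 was at 11.3, 7.97 and 13.2 CPM in Bai1 Tg pos 1 to 3. In Bai1 Tg neg 1 to 4 it was at 14.7, 15.6, 16.2 and 10.2 CPM. The library labelled Bai1 Tg neg 4 thus fell among the Bai1 Tg pos libraries. The log2 fold change was -0.38 (SE 0.210, adjusted p = 0.958, edgeR), and without that library it was -0.51 (SE 0.202, unadjusted p = 0.025, adjusted p = 0.988), where 4.35% of all genes had an unadjusted p under 0.05.

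Stab2 lay the other way. It was at 14.6, 18.1 and 15.2 CPM in Bai1 Tg pos and at 12.9, 13.1, 13.4 and 14.6 CPM in Bai1 Tg neg, with the library labelled Bai1 Tg neg 4 the highest of the latter. The log2 fold change was 0.25 (SE 0.147), and 0.29 (SE 0.162) without that library. Without it, Stab1 and Stab2 did not overlap between the groups, as was so for 10.3% of all genes tested. Lrp1, Scarb1, Scarb2 and Thbs1 had log2 fold changes of 0.07, 0.01, 0.00 and -0.06, with intervals that stayed within -0.32 and 0.32. Without the library labelled Bai1 Tg neg 4 they were 0.11, 0.00, 0.02 and -0.02, with intervals within -0.30 and 0.39. Cd300lf was at 4.51, 4.82 and 4.91 CPM in Bai1 Tg pos and at 4.08, 4.65, 8.94 and 3.89 CPM in Bai1 Tg neg (-0.17, 95% interval -0.84 to 0.50), and without the library labelled Bai1 Tg neg 4 the difference was -0.30 (-1.03 to 0.42). Bai1 Tg neg 3 stands apart from the other 3, and with only that library left out the log2 fold change was 0.18 (adjusted p = 0.998, edgeR).

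**Figure D5:**
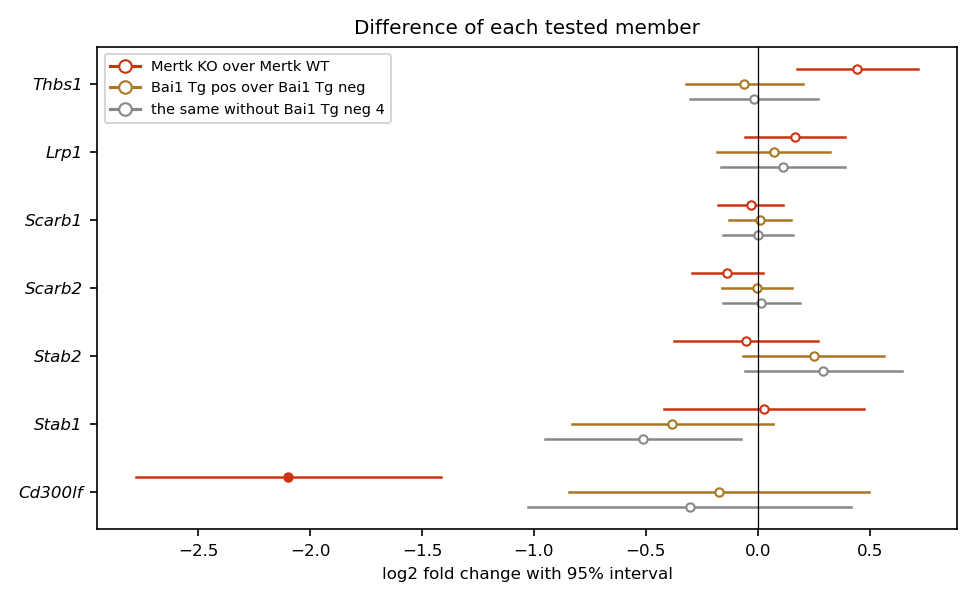
Log2 fold change (x axis) with 95% interval of each tested member (y axis) for Mertk KO over Mertk WT, Bai1 Tg pos over Bai1 Tg neg, and the latter without the library labelled Bai1 Tg neg 4. The filled point marks an adjusted p under 0.05, which holds for Cd300lf in the Mertk comparison, at -2.10, and open points are the rest.

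The Mertk and Bai1 effects were also tested against each other in a fit of all 15 libraries, where 0.103% of 14520 genes passed and no member did in edgeR, with 2 at an unadjusted p under 0.05, as for 7.53% of all genes. The difference was -1.92 for Cd300lf (SE 0.448, adjusted p = 0.141) and 0.51 for Thbs1 (SE 0.194, adjusted p = 0.536). For Cd300lf it passed with DESeq2 (adjusted p = 0.0208) and without Bai1 Tg neg 3 (-2.28, adjusted p = 0.0317, edgeR). Without the library labelled Bai1 Tg neg 4 the difference for Cd300lf was -1.79 (adjusted p = 0.269, edgeR), and 0.118% of genes passed. The 2 control groups, both wild type for Mertk, differed in 0.431% of 13459 genes, and no member was among them in edgeR, DESeq2 or limma-voom, nor had any an unadjusted p under 0.05 in edgeR, as 7.99% of all genes did. Their log2 fold changes, Bai1 Tg neg over Mertk WT, ran from -0.15 for Stab2 to 0.37 for Stab1. Without the library labelled Bai1 Tg neg 4 they ran from -0.20 to 0.50, no member passed in edgeR, and 0.204% of genes did. In that fit Stab1 had an unadjusted p of 0.0272 (adjusted p = 0.566, edgeR), against 7.29% of all genes under 0.05. Its libraries, higher in Bai1 Tg neg, and those of Stab2, lower there, did not overlap between the groups, as for 9.03% of all genes. Rod markers also differed between the control groups: all 12 lay lower in Bai1 Tg neg, with a median log2 fold change of -3.93, and sums of 202 to 462 CPM against 884 to 3646 CPM in Mertk WT. The labels carry a number, 12 for Bai1 libraries and 17 or 21 for Mertk libraries, whose meaning they do not give, so whatever it marks cannot be told apart from the difference between the control groups.

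Related genes were taken from lists of the same pathways. Except for the first, the lists below also hold members, among them Lrp1, Thbs1, Scarb1 and Stab1, so those values are counted again. Of 12 other phosphatidylserine and engulfment receptors 6 were tested in each of the Mertk and Bai1 comparisons (edgeR), and none passed or had an unadjusted p under 0.05, beside 5.58% and 5.18% of all genes. Without the library labelled Bai1 Tg neg 4, none of these lists had a gene past the threshold in the Bai1 comparison in edgeR, and those under 0.05 unadjusted numbered 0 of 6, and in the lists that follow 1 of 18, 1 of 15, 1 of 11 and 5 of 13, beside 4.35% of all genes. The most abundant were Anxa2, which binds phosphatidylserine (19.8 ± 1.81 RPKM), and Jmjd6, a nuclear hydroxylase once described as a phosphatidylserine receptor (12.7 ± 1.38 RPKM). In the LDL receptor list, 18 of 21 genes were tested and none passed in either comparison in edgeR, with 1 in each at an unadjusted p under 0.05. Apoe, a ligand of Lrp1, was at 2955 ± 500.03 RPKM, and Calr, a surface partner of Lrp1 in engulfment, at 274 ± 24.0 RPKM.

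Among 17 thrombospondins and their receptors, 14 were tested for Mertk and 15 for Bai1 in edgeR, and none passed. At an unadjusted p under 0.05 there were 2 for Mertk, of which Thbs1 was 1, and 1 for Bai1. Over all genes it was 5.58% and 5.18%. Thbs4, a pentameric relative of Thbs1, was at 148 ± 21.3 RPKM, with log2 fold changes of 0.18 for Mertk and -0.15 for Bai1. Of 16 genes of lipid uptake around Cd36, 11 were tested in each comparison in edgeR and none passed, with 2 for Mertk and 0 for Bai1 at an unadjusted p under 0.05. Slc27a1, a fatty acid transporter, was the most abundant of these at 109 ± 16.1 RPKM. In the list of 19 scavenger receptors, 12 were tested for Mertk and 13 for Bai1 in edgeR and none passed. At an unadjusted p under 0.05 there were 0 and 4, again beside 5.58% and 5.18% of all genes. Without the library labelled Bai1 Tg neg 4 it was 5 of 13 for Bai1, of which Stab1 was 1, beside 4.35% of all genes. The 4 with all Bai1 libraries, named after their values were seen, were Colec12, Scara5 and Scarf2 (log2 fold changes -0.87, -0.26 and -0.33) and Mrc1, the macrophage mannose receptor (2.51), each with an adjusted p of 0.948 (edgeR). Mrc1 was near the floor, at a mean of 0.412 CPM over the 15 libraries, with 93 counts in all and 0 in 3 libraries. Between the control groups, where 0.431% of all genes passed, 1 of that list did: Cd68 was at 13.3 ± 2.67 CPM in Bai1 Tg neg and 6.15 ± 1.38 CPM in Mertk WT (log2 fold change 1.11, adjusted p = 0.0263, edgeR). With the rod marker level as a covariate it was 0.57 (adjusted p = 0.805, edgeR), and 0 genes passed in place of 58. Rod marker sums did not overlap between the control groups (202 to 462 against 884 to 3646 CPM), so that fit cannot separate rod level from group. Leaving out Bai1 Tg neg 1, 2 or 3 or Mertk WT 3 took the adjusted p of Cd68 to 0.11, 0.121, 0.0592 and 0.083 (edgeR). Without the library labelled Bai1 Tg neg 4 it was 0.0294.

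Each detected member had its own set of genes of like pattern over the 15 libraries, by Pearson r of log2 CPM among 14520 genes, given as a description since libraries of a group share genotype. Cd300lf was most like Tyro3 (0.92) and Gja1, the gap junction connexin 43 (0.918), both of which were also lower in Mertk KO (log2 fold changes -1.84 and -0.61). Thbs1 was most like Lamb3, a laminin chain (0.922), and Adcy1, an adenylyl cyclase (0.912). Lrp1 was most like Gtf3c1 (0.895) and Smarca4 (0.872), and Scarb2 like Stxbp5l (0.883) and Ahi1 (0.857). Stab1 was most like Efnb1 (0.884) and Zcchc3 (0.839), Stab2 like Acot11 (0.844) and Nxpe4 (0.841), and Scarb1 like Hdac4 (0.796) and Ckap4 (0.758). Between members the correlations ran from -0.724, for Cd300lf and Thbs1, to 0.551, for Stab1 and Scarb1.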

How the data were processed

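The authors deposited raw fragment counts per gene. RNA was poly-A selected and prepared with a TruSeq kit, per the labels' protocols. STAR and the build GRCm38 are named in the submitters' processing notes. Per the file headers, featureCounts 1.5.0 summed exons per gene, needing both ends mapped and using no strand option. From these counts edgeR 4.0.16 (R 4.3.3) with TMM factors, filterByExpr and a robust quasi-likelihood test, two-sided, compared groups, with Benjamini-Hochberg adjustment over all genes tested and a threshold of 0.05. CPM used TMM factors over all 15 libraries. The scripts were tested on simulated data. The floor of 3 counts covers counting error only: with no molecular identifiers, PCR copies are counted as fragments.

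Members and gene lists were chosen with earlier results of these data known. Named genes are the members, the Mertk and Adgrb1 checks, list genes past the threshold or else the 2 of highest level, the 2 of highest level in each marker list (not all are given), genes past the threshold within 2 Mb of Thbs1 with its nearest neighbours, overlapping or copied genes, and the 2 of most similar pattern. Rab37 was added after its values were seen. Copies were sought with blastn 2.17.0 (95% identity over 150 bases) in GENCODE transcripts. Alternatives were DESeq2 1.42.0, limma-voom (limma 3.58.1), other size factors, no filter, 1 fit of all libraries, marker, tag or replicate-number covariates, Cd300lf summed with Cd300ld, and each library left out.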

Additional observations from a re-analysis of the deposited data

Results flagged for a closer look

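In 30 groups of 4 libraries (10 genes in 3 groups), 3 held a library far from the others; chance flags about 1 group in 20. Cd300lf stood at 8.94 CPM in Bai1 Tg neg 3, against 3.89 to 4.65 CPM in the other 3 libraries of that group. Adgrb1 stood at 143.5 CPM in the library labelled Bai1 Tg neg 4, against 0 to 0.142 CPM in the other 3. Adgrb1 also stood at 0.269 CPM (5 counts) in Mertk KO 1, with 0 in the other 3 libraries of Mertk KO. With those 3 equal, any value above 0 would stand apart, so the chance share above does not apply to this group.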

How the results depend on the processing

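The count of members past the threshold between Mertk KO and Mertk WT was 1, against 0 with limma-voom, 2 with the rod marker level as a covariate (Cd300lf and Thbs1) and 0 to 1 with a library left out. Cd300lf had a log2 fold change of -1.93 with limma-voom (adjusted p = 0.0503) and -1.18 with Rab37 as a covariate, added after seeing the data, and -2.27 to -1.93 with a library left out. Thbs1 passed in 1 of 18 alternatives, the rod covariate (0.57, adjusted p = 0.0158). For the difference of the effects the count of members was 0, against 1 with DESeq2 and 0 to 1 with a library left out. Between the Bai1 groups, and between the control groups, no member passed in any of the 16 alternatives for each.

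Of 366 alternative values of single genes, 328 kept their direction and side of the threshold and 29 changed sign, all for differences that did not pass. In the Mertk comparison Stab1 was -0.0391 with limma-voom, -0.0779 with the rod covariate and -0.145 to 0.165 with a library left out, and Stab2 was -0.114 to 0.0486. In the Bai1 comparison Cd300lf was 0.00010 with limma-voom and -0.30 to 0.18 with a library left out, and Lrp1 was -0.0848 to 0.151. Scarb1 was -0.0193 with limma-voom and -0.0323 to 0.0595. Scarb2 was 0.00097 with RLE size factors, 0.0540 with the rod covariate and -0.0419 to 0.0188, and Thbs1 -0.244 to 0.0581. Between the control groups Stab2 was 0.0062 and Cd300lf -0.25 with the macrophage covariate, and Cd300lf was -0.28 to 0.25 with a library left out. Thbs1 was 0.48 with the rod covariate, whose marker sums did not overlap between these groups, and -0.133 to 0.0468 with a library left out. The cause of these changes was not tested.

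Whether the replicate numbers of the labels pair the samples cannot be decided from so few libraries. Deviations of same-numbered libraries correlated at -0.114 to 0.236 in the Mertk groups and -0.00449 to 0.0142 in the Bai1 groups. Those of differently numbered libraries correlated at -0.204 to 0.246 and at -0.0192 to 0.0224. With the replicate number as a block, the Bai1 log2 fold change was -0.00035 for Scarb1 and 0.0164 for Scarb2. The members past the threshold then numbered 1 for Mertk and 0 for Bai1. Among the members tested, Cd300lf had the fewest counts, 16 to 126 per library. Timd4, Havcr1 and Cd36, with 1, 0 and 20 counts in all, were not tested.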
